A study of Rattus norvegicus with 6 samples.

Results

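The genes described here are those that move sodium across the kidney tubule by the sodium pump and by sodium-proton exchange. They were 8 listed genes, and the probes for each were all those whose RefSeq accession in the scanner files mapped to the gene's symbol. In all, 10 probes for 7 of the 8 genes were found, among 28194 named probes, and all 7 genes were among the 11530 genes tested. No probe mapped to Fxyd4, so that gene was not analysed here. Male Sprague-Dawley (Crl:CD(SD)) rats had been bought when 5 weeks old, and RNA from the renal cortex of each went on 1 single-colour array. In the ethylenediamine group, 3 rats received ethylenediamine dihydrochloride, the salt of a small diamine, at 500 mg/kg/day for 4 weeks. In the water group, 3 rats received water for 4 weeks. Both groups ate a basal diet with free access to tap water, and neither carried a genetic change that the labels mention. The comparison asked which of these genes differed in the cortex after treatment.

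The sodium pump (Na,K-ATPase) sits in the basolateral membrane of tubule cells and drives sodium out of the cell and potassium in. Its alpha subunit carries out catalysis, its beta subunit is needed to fold the pump and bring it to the membrane, and small FXYD proteins tune its affinity for ions. At the luminal membrane of the proximal tubule, the exchanger NHE3 takes up sodium in return for a proton and so recovers most filtered bicarbonate. PDZ-domain scaffolds hold NHE3 and other carriers in the brush border.

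The 6 arrays lay on 2 slides: ethylenediamine replicate 1 and all 3 water arrays on slide 1, ethylenediamine replicates 2 and 3 on slide 2. Ethylenediamine replicate 1 had the fewest probes well above background, 35691, against 40843 and 40516 on the other ethylenediamine arrays and 38930 to 40563 on the water arrays. Its lowest log2 signal well above background was also the highest, at -4.45, against -5.55 and -5.49 on the other ethylenediamine arrays and -5.51 to -5.19 on the water arrays. All 10 proximal tubule markers were measured, with a median log2 fold change of -0.0014 and summed signals of 1652 to 1675 in the ethylenediamine group and 1658 to 1733 in the water group, in multiples of the array's 75th percentile. Of these markers, 5 were positive and 5 negative, and 1 was lower at an unadjusted p under 0.05. Signals are given below on this log2 scale, relative to the array's 75th percentile, and they do not compare one probe with another. In bulk cortex, fewer cells of a type and less RNA per cell cannot be told apart.

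Among the 7 measured genes, the exchanger Slc9a3 differed most, at 0.757-fold in ethylenediamine-treated cortex, with the groups overlapping on its brightest probe. The pump subunits and the scaffolds lay within 10% of water. By limma, 0 of the 7 genes passed an adjusted p of 0.05, and 0 of all 11530 genes did (0%). At an unadjusted p under 0.05 there was 1 of 7, Slc9a3, against 10.4% of all genes tested (5.37% higher and 5.03% lower). The groups overlapped on the array values of all 7 genes by the probe that stands for each gene, whereas they did not overlap for 17.6% of all genes (9.18% higher and 8.39% lower). The median log2 fold change over the 7 was -0.07, with 6 negative and 1 positive, and over all genes tested it was -0.0040. All 7 were well above background on all 6 arrays. A 10% limit is the point estimate only, and the 95% intervals are given with each gene.

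**Figure D1:**
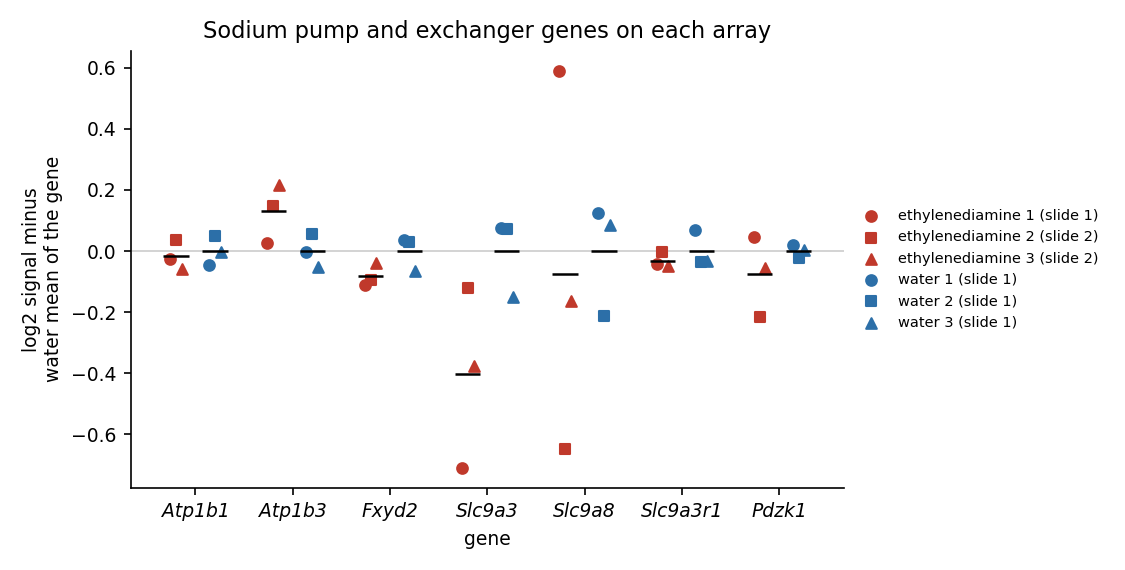
Log2 signal of each measured gene on each array, minus that gene's mean over the 3 water arrays (vertical axis), with ethylenediamine points left of water points and bars at group means. Slc9a3 shows the lowest ethylenediamine mean, at -0.40, and Slc9a8 the widest ethylenediamine spread (SD 0.62), while Atp1b1 and Slc9a3r1 lie close to 0 in both groups.

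Slc9a3 encodes NHE3 itself. The promoter sequences of Slc9a3, the member with the largest difference, and of Atp1b3, the only member with a positive one, are shown to set the regulatory DNA of the 2 ends of the range side by side. Capitals mark GGGCGG on either strand (a hexamer within the GC box bound by Sp1-type factors), overlapping matches included.

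Slc9a3 promoter, chr1:30995953-30996252, minus strand: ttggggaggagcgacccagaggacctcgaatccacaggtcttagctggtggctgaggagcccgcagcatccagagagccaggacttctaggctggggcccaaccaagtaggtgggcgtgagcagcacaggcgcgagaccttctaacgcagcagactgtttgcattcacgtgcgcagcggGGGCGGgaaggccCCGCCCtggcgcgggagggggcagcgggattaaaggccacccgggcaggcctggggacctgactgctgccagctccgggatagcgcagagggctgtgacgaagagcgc

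Atp1b3 promoter, chr8:105821102-105821401, minus strand: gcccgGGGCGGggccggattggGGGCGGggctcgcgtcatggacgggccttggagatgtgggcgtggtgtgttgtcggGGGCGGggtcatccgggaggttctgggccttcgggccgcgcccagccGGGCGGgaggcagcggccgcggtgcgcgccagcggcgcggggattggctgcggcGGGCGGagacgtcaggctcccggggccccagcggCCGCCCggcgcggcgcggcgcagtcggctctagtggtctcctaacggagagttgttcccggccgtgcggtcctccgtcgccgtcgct

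Both are RefSeq sequences of the GRCr8 assembly, from 250 bases before to 50 bases after the gene's start. The hexamer occurred 2 times in the Slc9a3 window and 6 times in the Atp1b3 window. The promoter table held 6 of the 8 genes, and 5 of these had at least 1 match, against 33.1% of the 33469 promoters in the table. The hexamer holds only G and C. Those 5 windows were 54.7% to 77.7% G and C, against a median of 51.7% over all promoters in the table. A match is a description of these letters only.

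The brightest Slc9a3 probe read -0.39, 0.20 and -0.05 in ethylenediamine replicates 1 to 3, against 0.40, 0.40 and 0.17 in water replicates 1 to 3. Ethylenediamine replicate 1 was the lowest, and ethylenediamine replicate 2 lay above the lowest water array, so the groups overlapped. The log2 fold change was -0.40 ± 0.16 (SE, n = 3 each; 95% interval -0.80 to -0.0043, limma adjusted p = 0.48). Only 6.57% of all genes tested had a larger absolute log2 fold change. The other Slc9a3 probes, which the brightest-probe rule left aside, gave the same direction with a smaller SE.

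The second Slc9a3 probe read -1.48, -1.60 and -1.32 in ethylenediamine replicates 1 to 3, against -1.12, -0.92 and -1.15 in water replicates 1 to 3. Every ethylenediamine array lay below every water array. Its log2 fold change was -0.41 ± 0.10 (SE, n = 3 each; limma adjusted p = 0.349 over 37822 probes). On the dimmest probe the values were -3.49, -3.68 and -3.35 with ethylenediamine, against -3.21, -2.93 and -3.22 with water, again without overlap. There the log2 fold change was -0.38 ± 0.12 (SE, n = 3 each; limma adjusted p = 0.401). That probe is dim, and its -3.49 on ethylenediamine replicate 1 compares with a lowest signal well above background of -4.45 on that array. The part of that higher floor in this value was not tested. Of the 10 probes of the 7 genes, the 3 of Slc9a3 were lower at an unadjusted p under 0.05, against 5.88% of all probes, and 2 were lower without overlap, against 9.66% of all probes. None of the 10 passed the adjusted threshold, which 0.0106% of all probes did. The 3 probes read the same transcript, so they are not independent.

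**Figure D2:**
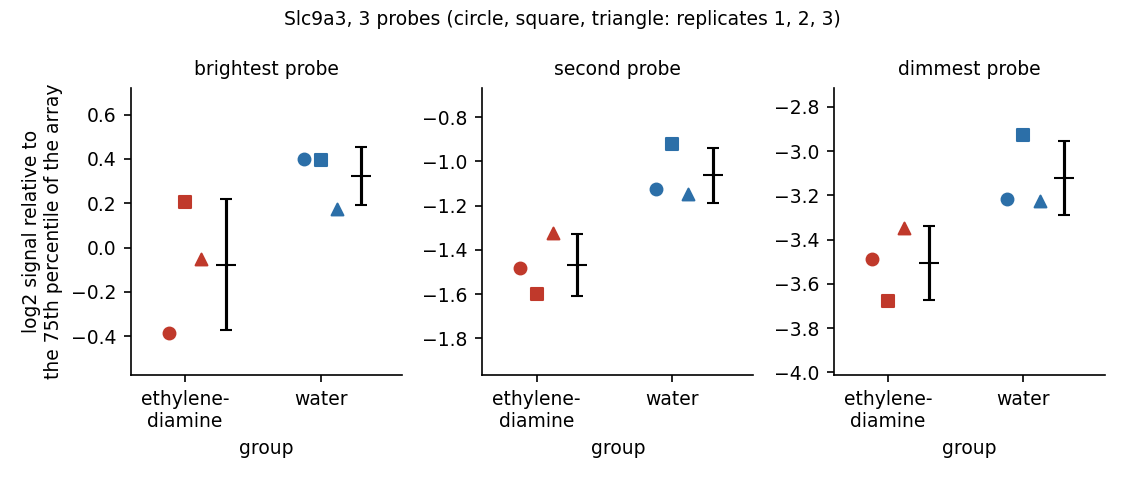
Log2 signal of the 3 Slc9a3 probes relative to the array's 75th percentile, for ethylenediamine (left) and water (right). Points are single arrays, and bars give the group mean ± SD (n = 3). The vertical scale has the same span in all 3 panels, and the groups overlap only on the brightest probe.

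The 3 Slc9a3 probes differed in how far they rested on ethylenediamine replicate 1. Set against water within slide 1, that array alone gave -0.71 on the brightest probe, -0.42 on the second and -0.37 on the dimmest. Without ethylenediamine replicate 1 the values were -0.25, -0.40 and -0.39, for the same 3 probes. With the full comparison all 9 values were negative, and the brightest probe moved by more than 1.5 times in both directions. Over the alternatives, 1 of which averaged the 3 probes, the limma adjusted p of Slc9a3 lay between 0.324 and 0.705.

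Slc9a8 encodes NHE8, an exchanger of the proximal tubule brush border and of intracellular compartments. Its 1 probe read -3.30, -4.54 and -4.06 in ethylenediamine replicates 1 to 3, against -3.77, -4.11 and -3.81 in water replicates 1 to 3. Ethylenediamine replicate 1 was the highest of all 6 arrays and ethylenediamine replicate 2 the lowest. The log2 fold change was -0.07 ± 0.31 (SE, n = 3 each; limma adjusted p = 0.951), and its 95% interval ran from 0.555-fold to 1.63-fold. The probe is dim, though well above background on all 6 arrays. Its -3.30 on ethylenediamine replicate 1 compares with a lowest signal well above background of -4.45 on that array. On ethylenediamine replicate 2 its -4.54 compares with -5.49. The part of the higher floor on ethylenediamine replicate 1 in the log2 fold change was not tested. Within slide 1 the value was 0.59, and without ethylenediamine replicate 1 it was -0.41.

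Both scaffolds differed little between the groups. Slc9a3r1, listed as Nherf1 in RefSeq, encodes the PDZ adaptor NHERF1, which links NHE3 to ezrin and so to the actin cytoskeleton. It read 2.42, 2.46 and 2.42 in ethylenediamine replicates 1 to 3, against 2.53, 2.43 and 2.43 in water replicates 1 to 3. Its log2 fold change was -0.03 ± 0.06 (SE, n = 3 each; limma adjusted p = 0.866), with a 95% interval from 0.891-fold to 1.08-fold. Pdzk1 encodes a scaffold with several PDZ domains that binds NHE3 and other brush border carriers. Its values were 6.49, 6.23 and 6.39 with ethylenediamine, against 6.46, 6.42 and 6.45 with water. The water arrays were close together, and ethylenediamine arrays lay on both sides of them. Its log2 fold change was -0.07 ± 0.08 (SE, n = 3 each; limma adjusted p = 0.755), from 0.831-fold to 1.09-fold.

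Of the pump's beta subunits, Atp1b1 encodes the main one of the tubule. It read 8.17, 8.23 and 8.14 in ethylenediamine replicates 1 to 3, against 8.15, 8.24 and 8.19 in water replicates 1 to 3. Both groups covered the same range, and the log2 fold change was -0.02 ± 0.06 (SE, n = 3 each; limma adjusted p = 0.938). The 95% interval ran from 0.898-fold to 1.09-fold. Atp1b3, a second beta isoform with wide tissue expression, read 2.68, 2.80 and 2.87 with ethylenediamine, against 2.65, 2.71 and 2.60 with water. Ethylenediamine replicates 2 and 3, both on slide 2, lay above all water arrays, and replicate 1, on slide 1, lay within them. Its log2 fold change was 0.13 ± 0.07 (SE, n = 3 each; limma adjusted p = 0.577), from 0.971-fold to 1.23-fold. Within slide 1 it was 0.03, and the slide and the remaining treated arrays cannot be told apart.

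Fxyd2 encodes the gamma subunit, which lowers the pump's affinity for sodium. Its brighter probe read 7.21, 7.23 and 7.28 in ethylenediamine replicates 1 to 3, against 7.36, 7.35 and 7.25 in water replicates 1 to 3. Water replicate 3 lay among the ethylenediamine arrays. The log2 fold change was -0.08 ± 0.06 (SE, n = 3 each; limma adjusted p = 0.653), from 0.858-fold to 1.04-fold, and on the second probe it was -0.04 ± 0.06 (SE, n = 3 each). The pump is dense in the distal nephron, where 5 of 7 markers of the distal convoluted and connecting tubule were measured. Their median log2 fold change was -0.41, with 3 lower at an unadjusted p under 0.05 (5.03% of all genes tested), and their summed signals ran from 163 to 219 in the ethylenediamine group and from 166 to 191 in the water group. The calcium-binding protein Calb1 stood at -0.89 ± 0.15 and the calcium channel Trpv5 at -0.44 ± 0.13 (SE, n = 3 each). The kallikrein Klk1, named after its values were seen because it carries most of the summed signal, stood at 0.21 ± 0.12 (SE, n = 3 each), the opposite sign. None of the 5 was below background on all arrays of a group. All 6 markers of the thick ascending limb were measured, 1 positive and 5 negative (median -0.036), and 0 had an unadjusted p under 0.05 by limma. Their summed signals ran from 469 to 537 in the ethylenediamine group and from 402 to 543 in the water group. All 8 markers of collecting duct principal cells were measured and negative (median -0.16), 1 of them lower at an unadjusted p under 0.05. Their summed signals ran from 168 to 202 in the ethylenediamine group and from 213 to 263 in the water group. Aqp2, named after its values were seen, gave the largest part of these sums. It was the 1 marker under that threshold, at -0.57 ± 0.13 (SE, n = 3 each). The median deviation of the 8 from their water means was 0.0078, -0.21 and -0.20 in ethylenediamine replicates 1 to 3. In water replicates 1 to 3 it was -0.070, 0.17 and -0.039, so by this measure the groups overlapped. Of 8 intercalated cell markers 7 were negative (median -0.21) and 3 lower at that threshold, with summed signals of 148 to 170 in the ethylenediamine group and 182 to 223 in the water group. Of 8 tubular injury markers 7 were measured, 6 of them positive (median 0.40) and 4 higher at an unadjusted p under 0.05, against 5.37% of all genes tested. Their summed signals ran from 33.4 to 52.9 in the ethylenediamine group and from 23.9 to 37.0 in the water group. The part of these marker differences in the pump and exchanger values was not tested.

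The wider sodium pump family had 11 of 15 listed genes measured, 7 with a positive and 4 with a negative log2 fold change (median 0.05). By limma 0 passed adjusted over all genes tested. The unadjusted p was under 0.05 for 3 genes, all of the FXYD group (2 higher, 1 lower), against 10.4% of all genes tested. Fxyd7, whose product associates with the pump in brain, read -1.50, -1.36 and -1.23 with ethylenediamine, against -1.81, -1.88 and -1.85 with water, so the groups were apart. Its log2 fold change was 0.48 ± 0.08 (SE, n = 3 each; limma adjusted p = 0.307), and within slide 1 it was 0.35. Fxyd5, which encodes dysadherin, read 0.42, 0.64 and 0.63 with ethylenediamine, against 0.41, 0.30 and 0.36 with water. The groups did not overlap, though ethylenediamine replicate 1 lay next to water replicate 1. Its log2 fold change was 0.21 ± 0.08 (SE, n = 3 each; adjusted p = 0.464 by limma), and the second probe gave 0.21 ± 0.06. Within slide 1 the values were 0.06 and 0.17, and the slide and the remaining treated arrays cannot be told apart.

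Fxyd6 went the other way, at 3.37, 3.63 and 3.24 with ethylenediamine, against 3.54, 4.03 and 3.83 with water. Ethylenediamine replicate 2 lay above the lowest water array. The log2 fold change was -0.39 ± 0.16 (SE, n = 3 each; adjusted p = 0.48 by limma), and on the second probe, where the groups did not overlap, it was -0.23 ± 0.06. Smooth muscle, where FXYD and pump isoforms other than the tubular ones are known, had 5 of 6 markers measured, with a median log2 fold change of 0.41 and 4 higher at an unadjusted p under 0.05 (5.37% of all genes tested). Its summed signals ran from 36.5 to 52.3 in the ethylenediamine group and from 25.1 to 40.2 in the water group. The contractile genes Tagln and Acta2 stood at 0.83 ± 0.10 and 0.41 ± 0.09 (SE, n = 3 each), and the part of this difference in the FXYD values was not tested.

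**Figure D3:**
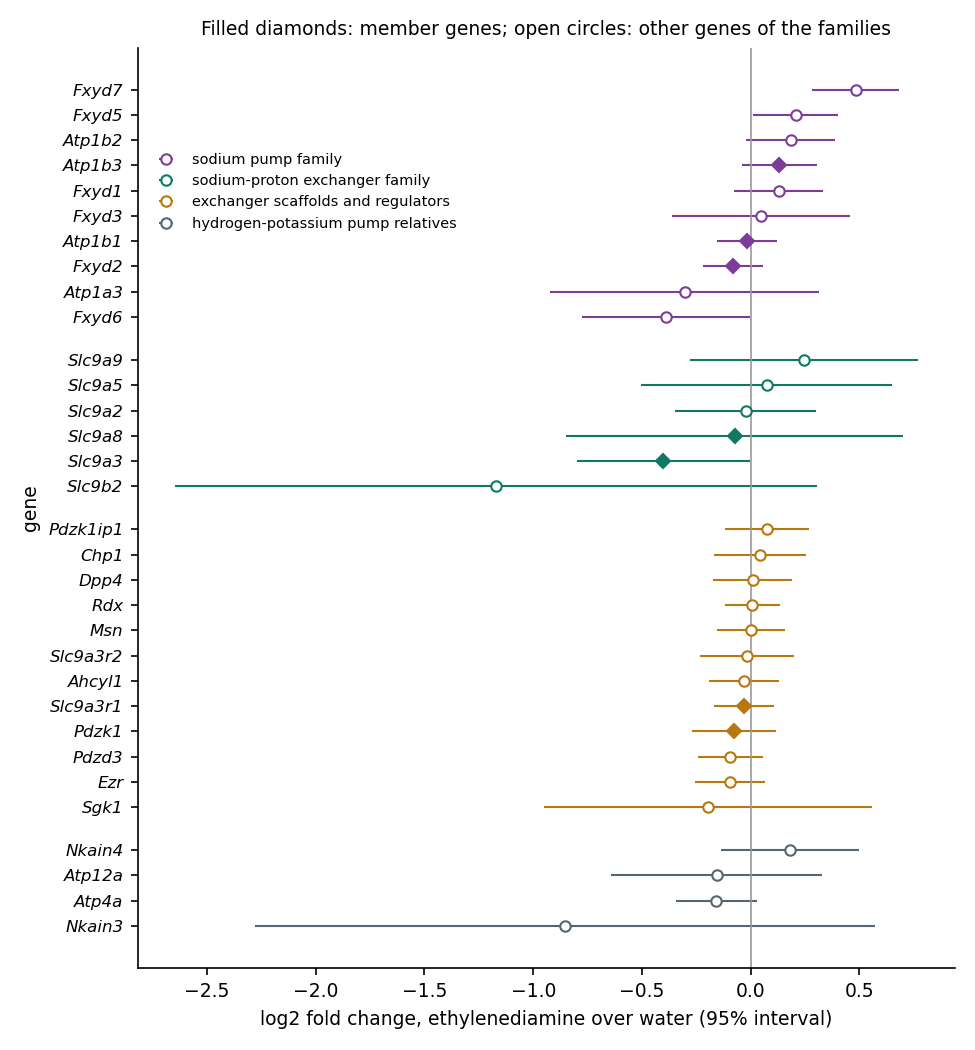
Log2 fold change of ethylenediamine over water for measured genes of 4 families that are reported here, with 95% intervals from limma (n = 3 each), sorted within each family. Filled diamonds are the 7 genes described above and open circles the other family genes. The interval of Slc9a3 ends at -0.0043 and that of Fxyd6 at -0.0016. The intervals of Fxyd7 and Fxyd5 lie wholly above 0, and most scaffold and regulator genes have narrow intervals that span 0.

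Of 13 listed sodium-proton exchangers, 7 were measured, 3 with a positive and 4 with a negative log2 fold change (median -0.02). By limma 0 passed adjusted over all genes, and 1, Slc9a3, had an unadjusted p under 0.05 (10.4% of all genes tested). Slc9a2 stood at -0.02 ± 0.13, and Slc9a9, an exchanger of endosomes, at 0.25 ± 0.21 on its brightest probe (SE, n = 3 each). A second Slc9a9 probe, chosen after its values were seen, disagreed in size. It read -3.62, -3.83 and -3.46 with ethylenediamine, against -4.45, -4.69 and -4.51 with water, and stood at a log2 fold change of 0.91 ± 0.12 (SE, n = 3 each; adjusted p = 0.254 by limma over all probes). The groups were apart on that probe and overlapped on the brightest one, where ethylenediamine replicate 3 alone stood high.

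Scaffolds and regulators of the exchangers had 12 of 15 genes measured, 5 positive and 7 negative, with a median of -0.02. At an unadjusted p under 0.05 there were 0 by limma, and adjusted over all genes 0. Ezr, which encodes ezrin, stood at -0.10 ± 0.07 and Slc9a3r2, which encodes the adaptor NHERF2, at -0.02 ± 0.09 (SE, n = 3 each). A second Ezr probe, chosen after its values were seen, stood at -0.21 ± 0.07 (SE, n = 3 each; limma adjusted p = 0.413 over all probes). On that probe every ethylenediamine array lay below every water array, as for 9.66% of all probes. The aldosterone-induced kinase Sgk1 spread widely within both groups, with SDs of 0.35 among ethylenediamine arrays and 0.53 among water arrays. Among 7 hydrogen-potassium pump and NKAIN genes, 4 were measured and 0 had an unadjusted p under 0.05 by limma. The non-gastric proton pump Atp12a stood at -0.16 ± 0.20 (SE, n = 3 each).

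The genes whose profile over the 6 arrays came closest were found by the root mean square difference of log2 values centred on each gene's mean. For Atp1b3, which had the smallest p of the 3 pump subunits among the 7 genes, these were 2810025M15Rikl, Gars1 and Wbp2, at 0.016, 0.018 and 0.023. For Slc9a3 they were Ankrd33b, Ccdc69 and Prelp, at 0.080, 0.096 and 0.096. Their log2 fold changes were -0.34, -0.37 and -0.31, against -0.40 for Slc9a3.

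**Figure D4:**
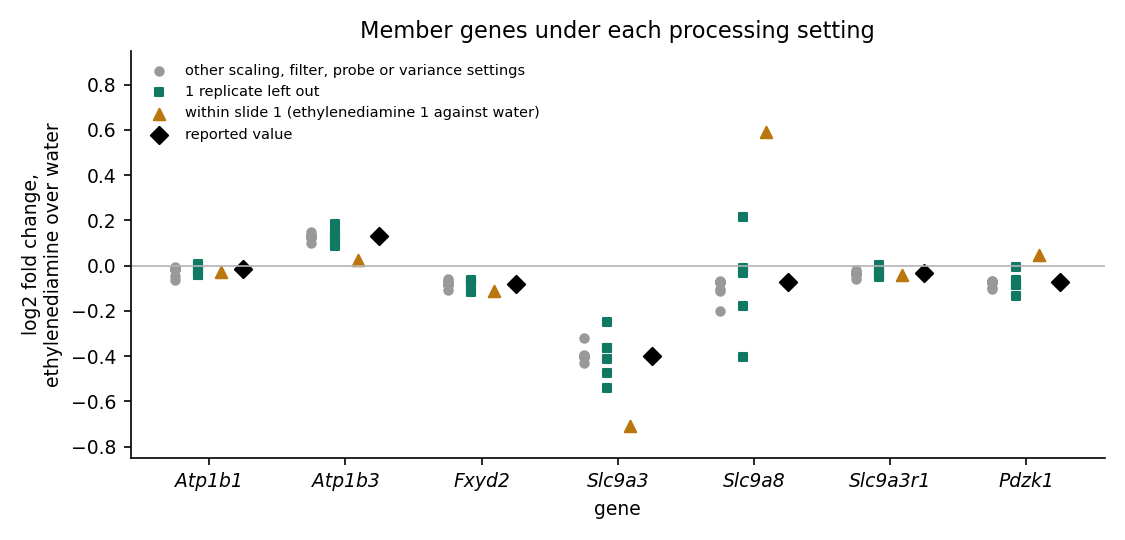
Log2 fold change of the 7 genes under every processing setting: the reported value (black diamonds), 1 replicate left out (green squares), the comparison within slide 1 (orange triangles) and other settings (grey circles). All Slc9a3 values lie between -0.71 and -0.25, while Slc9a8 runs from -0.41 to 0.59.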

How the data were processed

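Each spot has a linear intensity, background-subtracted per the file headers by Agilent Feature Extraction 10.7.1.1 (10.7 per the submitters' processing notes), on a grid of build rn4, not scaled between arrays. Per the labels, 0.2 ug of RNA per animal was labelled with Cy3. The authors also deposited processed values, which equal that intensity times 1 factor per array (100% of probes within 2% of it). Its values are linear and uncentred, with column medians of 0.1046 to 0.1104, and it served only as an alternative.

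Here log2 intensity minus the array's 75th percentile over non-control probes was used. Left out were 1439 control spots and, for an outlier flag, 22 of 61537 remaining probes, and no spot was saturated. Symbols came from RefSeq accessions (GRCr8, names only). Probes well above background on all 3 arrays of a group were kept (37822), and the brightest stood for a gene. The comparison of group means used limma 3.58.1 under R 4.3.3 (Benjamini-Hochberg over all genes tested, threshold 0.05, 95% intervals, 4 residual and 1.84 prior degrees of freedom), tested on simulated data. The number of arrays limits the precision. Slides and scan days coincide.

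The members and gene lists were chosen with earlier results of these data known. The rule for named genes took all members, family genes at an unadjusted p under 0.05, fixed partners (among them Slc9a3r2 and Ezr), each family's brightest gene and at most 2 markers per cell type. Any other family gene was named with its values in view. The files have no mean spot signal, so normexp (offset 50) used the median one. Replicate numbers showed no sign of pairing: deviations of same-numbered arrays correlated at -0.0030, 0.022 and -0.0080 over genes. Those of differently numbered arrays correlated at -0.029 to 0.030. With 3 arrays per group these values cannot exclude pairing. Some genes of these families are not reported here.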

Additional observations from a re-analysis of the deposited data

How the results depend on the processing

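Across 19 alternatives, 0 of the 7 genes passed the adjusted threshold. Their 10 probes were all refitted with normexp, median scaling, quantile normalization, a slide term and slide 1 alone, and 0 passed. Slc9a3 kept its negative sign in all 19, from -0.71 to -0.25, and had an unadjusted p under 0.05 in 12, while Atp1b3 and Fxyd2 also kept their signs. Over all genes, limma called 1 with an intensity trend, 10 with the slide as a fixed block and 6 within slide 1, and 0 to 1 with 1 replicate left out. Within slide 1 Slc9a3 stood at -0.71 and Slc9a8 at 0.59. Members at an unadjusted p under 0.05 by limma numbered 0 with no filter (7.31% of all genes tested) and with array weights (11.6%). They also numbered 0 with the replicate number as a block (8.2%). With 1 replicate left out the count was 0 to 1 (7.86% to 13.5% of all genes tested). That count was 0 without ethylenediamine replicate 3, water replicate 1 or water replicate 2, and without ethylenediamine replicate 1 the 1 gene was Atp1b3 (0.18), not Slc9a3.

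The sodium-proton exchanger count was 0 with no filter, array weights and the replicate block. With the mean of kept probes it was 2, 1 higher and 1 lower. There the share of all genes tested at an unadjusted p under 0.05 by limma was slightly above that of the reported comparison. Leaving out 1 replicate gave an exchanger count of 0 to 1 (0 without ethylenediamine replicate 1 or 3). The pump family count was 1 to 3 with 1 replicate left out, at 1 without water replicate 2 (7.86% of all genes tested) or 3 (7.9%). Scaffolds had 1 gene with no filter (7.31% of all genes tested). Hydrogen-potassium pump and NKAIN genes had 1 with median scaling (10.2%) and 0 to 1 with 1 replicate left out. Signs turned within slide 1 and with the slide as a block for Slc9a8 (0.59) and Pdzk1 (0.045). They also turned with 1 replicate left out, where values ran from -0.41 to 0.21 for Slc9a8, from -0.043 to 0.0080 for Atp1b1 and from -0.048 to 0.0029 for Slc9a3r1. The estimate with the slide as a block is ethylenediamine replicate 1 against water, and the cause of the other shifts was not tested. Within slide 1 the ethylenediamine arm is 1 array, assumed to vary like the water arrays, so counts from slide 1 alone carry no replicate check of treatment.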

Other observations

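In the order of genes on chromosome 1 of GRCr8, Fxyd5, Fxyd7 and Fxyd1 follow one another, and these were the 3 pump family genes with every ethylenediamine array above every water array (3 of 11, against 9.18% of all genes tested). Their log2 fold changes were 0.21, 0.48 and 0.13, with Fxyd1 (phospholemman) at 0.13 ± 0.08 (SE, n = 3 each; limma adjusted p = 0.633). Fxyd3, 1 gene further on past Lgi4, read near background and stood at 0.05 ± 0.17. On chromosome 8, Fxyd6 lies next to Fxyd2, at -0.39 and -0.08. These neighbours were picked after their values were seen, and no adjusted p passed the threshold.

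On the brightest probe, water replicate 2 stood far above the other 5 arrays for Slc9b2, a distant sodium-proton exchanger, at -2.10 against -4.79 to -4.62 in the ethylenediamine group and -4.43 and -4.02 in water replicates 1 and 3. On the other kept Slc9b2 probe water replicate 2 was the lowest array instead, at -4.43, against -4.31 to -4.11 in the ethylenediamine group and -4.19 and -3.95 in water replicates 1 and 3, and that probe gave a log2 fold change of -0.013 ± 0.13 (SE, n = 3 each). The array was also highest for Nkain3, named for the interaction of its product with the pump, at -2.84 against -5.57 to -4.56 in the ethylenediamine group and -4.69 and -4.71 in water replicates 1 and 3. The Nkain3 probe and both Slc9b2 probes were well above background on only 2 of 3 ethylenediamine arrays, so the water group alone kept them. On ethylenediamine replicate 1, Nkain3 (-5.57) and the brightest Slc9b2 probe (-4.79) lay under that array's lowest signal well above background, -4.45.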
